A study of Mus musculus with 22 samples.

Results

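The genotype by kainic acid interaction was the contrast (KO KA − KO saline) − (CTR KA − CTR saline), taken in the dentate gyrus of male mice over all 22 arrays and all 46237 probes of the series. It asks which transcriptional responses to seizures were lost, reduced, kept, enlarged or turned around when serum response factor (SRF) was deleted in adult neurons. CTR mice (n = 6 after saline, n = 5 after kainic acid) were Srf f/f littermates, with both copies of Srf flanked by loxP sites. KO mice (n = 6 after saline, n = 5 after kainic acid) were Srf f/f;CaMKCreERT2, in which a tamoxifen-activated Cre is made in excitatory forebrain neurons only, so glia, vessels and interneurons of the dissected tissue keep the gene. Both genotypes received tamoxifen as adults of 2 to 6 months, at least 4 weeks before the experiment. Kainic acid (KA) was injected intraperitoneally at 35 to 50 mg/kg, and tissue was taken 6 h after seizures or after the saline injection. The dose that each animal received is not in the labels. Illumina MouseWG-6 v2.0 arrays were used, 1 for each animal, and every value below is a log2 signal or a difference of log2 signals unless a fold is named.

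SRF binds the CArG box, a run of A and T bases framed by CC and GG, and works with ternary complex factors such as Elk1, which answer to MAP kinase signalling, and with the myocardin-related factors, which answer to actin. In stimulated neurons it is known for driving immediate-early genes such as Fos and Egr1, whose products switch on a later set of secreted, synaptic and feedback genes. KA activates kainate-type glutamate receptors and evokes seizures that drive the granule cells of the dentate gyrus.

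Srf (probe ILMN_2988299), on which the labels can be checked, ran from 12.28 to 12.62 (median 12.44) in the CTR saline arrays and was 11.73, 12.22, 12.11, 12.20 and 12.05 in the CTR KA arrays. In KO mice it ran from 11.20 to 11.59 (median 11.45) after saline and was 11.32, 11.10, 10.95, 11.41 and 11.37 after KA. No KO array reached the level of a CTR array with the same injection, and the Srf interaction was 0.21 (standard error 0.15, adjusted p = 0.57). The position of the probe relative to the deleted segment is not given in the sources used here, and fewer cells of a type cannot be told apart from less RNA per cell in dissected tissue. A further table of linear signals carries the same 22 array names, but only 6 of its headings name the array whose values stand under them in the log2 table and 14 name an array of another group, so it was used in no comparison. Among 16 granule cell markers, C1ql2 had a mean of 15.45 and Prox1 of 12.19 in CTR mice after saline, whereas Calb1 was among the dimmest probes at 7.36. Summed over 10 choroid plexus and ependyma markers, the mean signal was 8.55 to 11.66 in single arrays. It was 11.14 in CTR KA array 2, 11.66 in the highest KO saline array and 11.42 in the highest KO KA array, and none of these markers had a called interaction. A set of 6 arrays deviated together from their group means (CTR saline 6, CTR KA 4 and 5, KO saline 5 and 6, and KO KA 5). The labels give no batch for it. All 966 called interactions kept their sign without these 6 arrays, and 661 of them (68.4%) were called again. The 16 arrays left had also entered the fit that made the calls, so a kept sign is no independent check.

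KA responses were called for fewer probes in KO than in CTR mice, and most of the called interactions were negative. A response to KA was called at an adjusted p under 0.05 with more than 1.5-fold change, and the interaction at an adjusted p under 0.01, both from limma with Benjamini-Hochberg adjustment over all probes. In CTR mice 3407 probes rose (7.37% of all) and 2601 fell (5.63%), and in KO mice 1512 rose (3.27%) and 1299 fell (2.81%). The interaction was called for 966 probes (2.09% of all probes), which stand for 755 genes. It was negative for 609 probes (1.32%), meaning a smaller rise or a larger fall in KO mice, and positive for 357 (0.772%), which became 541 without CTR KA array 5. The median interaction over all probes was −0.0058, and the called ones ranged in size from 0.376 to 3.64. Of the called interactions, 591 were lost responses (1.28% of all probes), called in CTR mice and not in KO mice, and 208 were reduced responses (0.45%), called in both with the same direction and smaller in KO mice. A further 7 were enlarged (0.0151%), 62 were gained, called in KO mice and not in CTR mice (0.134%), 13 were reversed (0.0281%), and 85 belonged to none of these classes. A response was classed as kept only where it was called in both genotypes with 1 direction and the 95% confidence interval of the interaction lay within 1.5-fold either way (0.585 on the log2 scale), which 638 probes met (1.38%). Of the 6008 probes called for KA in CTR mice, 4551 had neither a called interaction nor a kept response, and for these the arrays did not decide. Counted by genes on their brightest probe, the classes held 399 lost (1.82% of 21945 genes), 132 reduced (0.602%), 423 kept (1.93%), 4 enlarged (0.0182%), 42 gained (0.191%) and 11 reversed responses (0.0501%). Just inside the threshold lay Ppa1 (interaction −0.77) and Dusp4 (−1.05), and just outside it Aloxe3 (−1.11) and Zfp512 (0.60). The median standard error of the interaction among the probes called in CTR mice was 0.2.

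**Figure D1:**
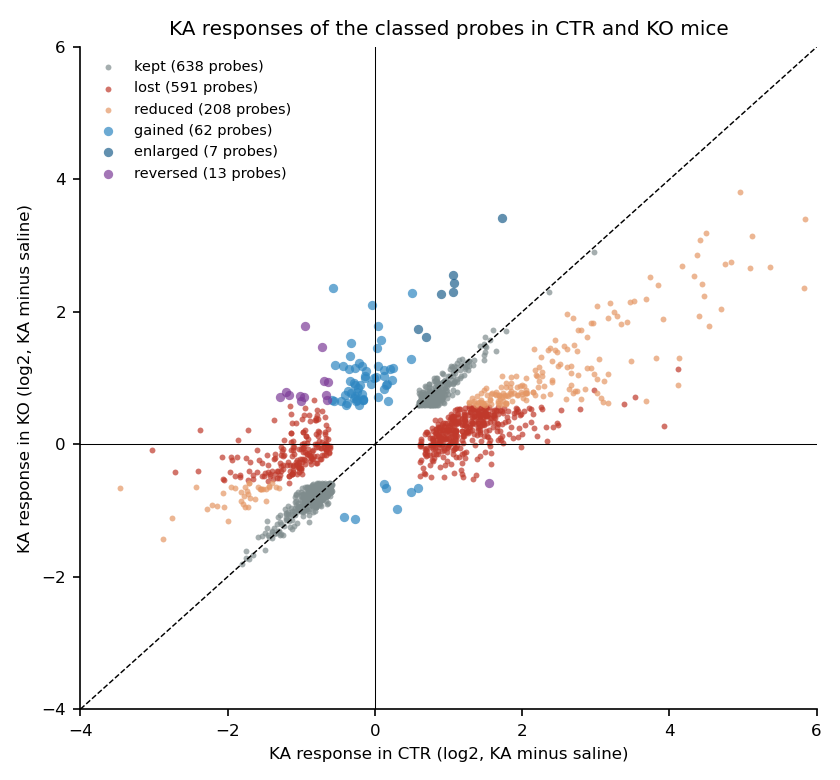
KA response in KO mice against KA response in CTR mice (log2, KA minus saline) for the classed probes, each point 1 probe, coloured by class, with the line of equal responses dashed; the empty bands follow from the class thresholds. The 591 lost probes lie along the horizontal axis, the 208 reduced probes between the axis and the dashed line, and the 638 kept probes on it.

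The shares differed between rises and falls. Of the probes that rose in CTR mice, 16.7% had a called negative interaction and 7.16% were kept, while of those that fell 9.34% had a called positive interaction and 15.1% were kept. Among the lost responses 397 were rises and 194 falls, and among the reduced ones 171 were rises and 37 falls. The kept responses turned the other way, with 244 rises and 394 falls. The difference between these shares was not tested. By the way the classes are made, the median response of the lost probes was 1.12 in size in CTR mice and 0.258 in KO mice, that of the reduced probes 2.07 and 0.854, and that of the kept probes 0.819 and 0.767.

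The genotypes differed in the KA arrays far more than in the saline arrays. For the 966 called probes the median size of the KO minus CTR difference was 0.937 after KA and 0.0696 after saline, and in 2 of the 966 the saline difference was the larger. After KA, 871 of them were also called between the genotypes, where 1.67% of all probes were higher and 3.1% lower in KO mice, and after saline none was. These differences share arrays with the interaction and describe its parts. Srf itself was the single probe called between the genotypes after saline (0.00216% of all).

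Among lost rises, those of Npas4, Il11, Acan and Nr4a2 had the largest interactions. Npas4 (ILMN_1251414), a transcription factor that neurons make on calcium entry, ran from 7.86 to 8.70 (median 8.24) in the CTR saline arrays and was 13.99, 10.52, 12.15, 11.55 and 12.53 in the CTR KA arrays. In KO mice it ran from 7.79 to 8.28 (median 8.19) after saline and was 8.50, 8.13, 8.61, 8.22 and 8.34 after KA. Every CTR KA array was high, whereas the KO KA arrays overlapped the saline arrays of the same genotype. Npas4 rose 15.1-fold in CTR mice against a ratio of 1.21-fold in KO mice, with an interaction of −3.64 (standard error 0.49, adjusted p = 8.0e-05). A dimmer second Npas4 probe, with a mean signal of 7.69, had an interaction of −0.069 (adjusted p = 0.85). Il11, related to interleukin 6 and read on ILMN_1243862, had values of 11.18, 12.21, 12.63, 10.70 and 10.33 in the CTR KA arrays and 8.05, 8.30, 10.06, 8.17 and 8.05 in the KO KA arrays, over saline medians of 7.96 and 7.81. KO KA array 3 stood apart from the other KO KA arrays. These lay inside the KO saline range (7.48 to 8.18), except for array 2 just above it. The Il11 interaction was −2.81 (adjusted p = 0.0011).

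Acan (ILMN_2639818), the gene of aggrecan, the core proteoglycan of perineuronal nets, was 10.72, 10.97, 12.44, 11.66 and 10.56 in the CTR KA arrays and 8.78, 8.29, 8.92, 8.16 and 8.33 in the KO KA arrays. Both saline medians were 7.86. The genotypes did not overlap after KA, but every KO KA array also lay above the KO saline arrays (at most 8.04), with a KO response of 0.60 (95% confidence interval 0.13 to 1.07, adjusted p = 0.089). The interaction was −2.78 (standard error 0.32, adjusted p = 1.5e-05), with −3.23 from the other Acan probe. Nr4a2 (ILMN_1254547), an orphan nuclear receptor, was 11.89, 11.61, 12.34, 10.85 and 12.60 in the CTR KA arrays and 9.79, 9.71, 10.50, 9.87 and 9.44 in the KO KA arrays. Its saline medians were 9.49 and 9.79, so the KO KA arrays stayed around the KO saline level, and the interaction was −2.28 (adjusted p = 6.3e-05).

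Among lost falls, Dsp, Cacna1h, Bcl11b and Napepld had the largest interactions. Dsp (ILMN_2654997), the gene of desmoplakin and a marker of granule cells, ran from 10.56 to 11.18 (median 11.00) in the CTR saline arrays and was 8.42, 7.85, 7.61, 7.58 and 8.08 in the CTR KA arrays. In KO mice it ran from 10.10 to 10.74 (median 10.41) after saline and was 10.55, 10.59, 9.80, 10 and 10.65 after KA. The KO KA arrays overlapped the KO saline arrays, while the CTR KA arrays lay apart from both. Dsp fell 8.17-fold in CTR mice, with 1.06-fold in KO mice and an interaction of 2.94 (standard error 0.24, adjusted p = 1.8e-07). Cacna1h (ILMN_1246201), the pore subunit of the T-type calcium channel Cav3.2, was 11.70, 11.18, 10.60, 10.06 and 12 in the CTR KA arrays and 13.47, 13.54, 13.17, 13.07 and 13.82 in the KO KA arrays, over saline medians of 13.45 and 13.15. The interaction was 2.58 (standard error 0.33, adjusted p = 4.0e-05). Dimmer probes of Dsp (0.13 and 0.18) and Cacna1h (−0.18 and 0.17), with mean signals of 7.33 to 7.82, were not called.

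Bcl11b (ILMN_2611022), a zinc finger factor of neuronal differentiation also known as Ctip2, was 11.75, 12.12, 11.10, 10.96 and 12.09 in the CTR KA arrays and 13.97, 13.81, 13.29, 13.81 and 14.10 in the KO KA arrays, over saline medians of 14.32 and 14.25. Its interaction was 2.30 (adjusted p = 9.6e-06), and the other 3 probes of the gene gave 1.89, 2.80 and 1.71. Napepld (ILMN_2902492), an enzyme that makes N-acylethanolamines, was 9.95, 9.85, 9.55, 10.14 and 9.44 in the CTR KA arrays and 11.48, 11.51, 11.57, 11.40 and 12.12 in the KO KA arrays. Its saline medians were 11.65 and 11.51. The interaction of 1.93 (standard error 0.18, adjusted p = 9.1e-07) was nearly the same on the other Napepld probe, 1.94. For both genes all KO KA arrays lay above all CTR KA arrays.

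Reduced responses were those of genes that still passed the test in KO mice. Fos (ILMN_2750515), a subunit of the AP-1 factor, was 15.06, 14.90, 15.43, 15.91 and 15.21 in the CTR KA arrays and 11.51, 11.47, 12.78, 11.19 and 11.97 in the KO KA arrays, over saline medians of 9.43 and 9.42. In each genotype the KA arrays lay above the saline arrays, and the KO KA arrays lay below the CTR KA arrays. Fos rose 56.8-fold in CTR and 5.14-fold in KO mice, so that 40.5% of the log2 response was retained and the interaction was −3.47 (standard error 0.40, adjusted p = 1.5e-05). Rnd3 (ILMN_1230157), which acts on the actin cytoskeleton, was 12.73, 12.26, 12.89, 12.43 and 12.54 in the CTR KA arrays and 9.24, 9.47, 10.33, 9.45 and 9.63 in the KO KA arrays. Its saline medians were 8.86 and 8.90. The Rnd3 interaction of −3.04 (standard error 0.23, adjusted p = 4.4e-08) left 17.5% of the response. Acan and Il11, classed as lost, were left with 17.8% and 20.4%, so the classes overlap in the share retained.

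Ybx3 (ILMN_1246770), a cold-shock domain protein that binds DNA and RNA, was 13.12, 14.61, 14.45, 15.26 and 15.12 in the CTR KA arrays and 11.61, 10.81, 11.95, 12.76 and 11.52 in the KO KA arrays, over saline medians of 10.34 and 10.56. The interaction was −2.83 (adjusted p = 6.1e-04), and 3 dimmer Ybx3 probes, with mean signals of 8.17 to 9.43, gave −0.60, −0.17 and −0.79 and were not called. Socs3 (ILMN_2618176), which inhibits JAK and STAT signalling by cytokines, was 12.51, 13.39, 13.60, 13.42 and 12.47 in the CTR KA arrays and 9.94, 9.96, 11.92, 10.32 and 10.13 in the KO KA arrays. KO KA array 3 stood well above the other KO KA arrays. The Socs3 interaction was −2.74 (standard error 0.40, adjusted p = 2.0e-04), with 39.4% of the response retained.

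Among reduced falls, Rapgefl1 had an interaction of 1.78 (adjusted p = 5.2e-05), Dclk3, a kinase of the doublecortin-like family, 1.65 (adjusted p = 6.9e-04), Fbxo41, a neuronal F-box protein, 1.31 (adjusted p = 0.0035) and Bcl7a, a subunit of the BAF chromatin remodelling complex, 1.24 (adjusted p = 1.7e-04). Between 26.5% and 42.5% of these falls was retained in KO mice. Dclk3 was 8.65, 9.27, 8.28, 8.49 and 9.25 in the CTR KA arrays and 10.54, 10.35, 9.35, 10.59 and 10.58 in the KO KA arrays, over saline medians of 11.58 and 11.40. KO KA array 3 was again the one nearest to the CTR KA arrays.

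**Figure D2:**
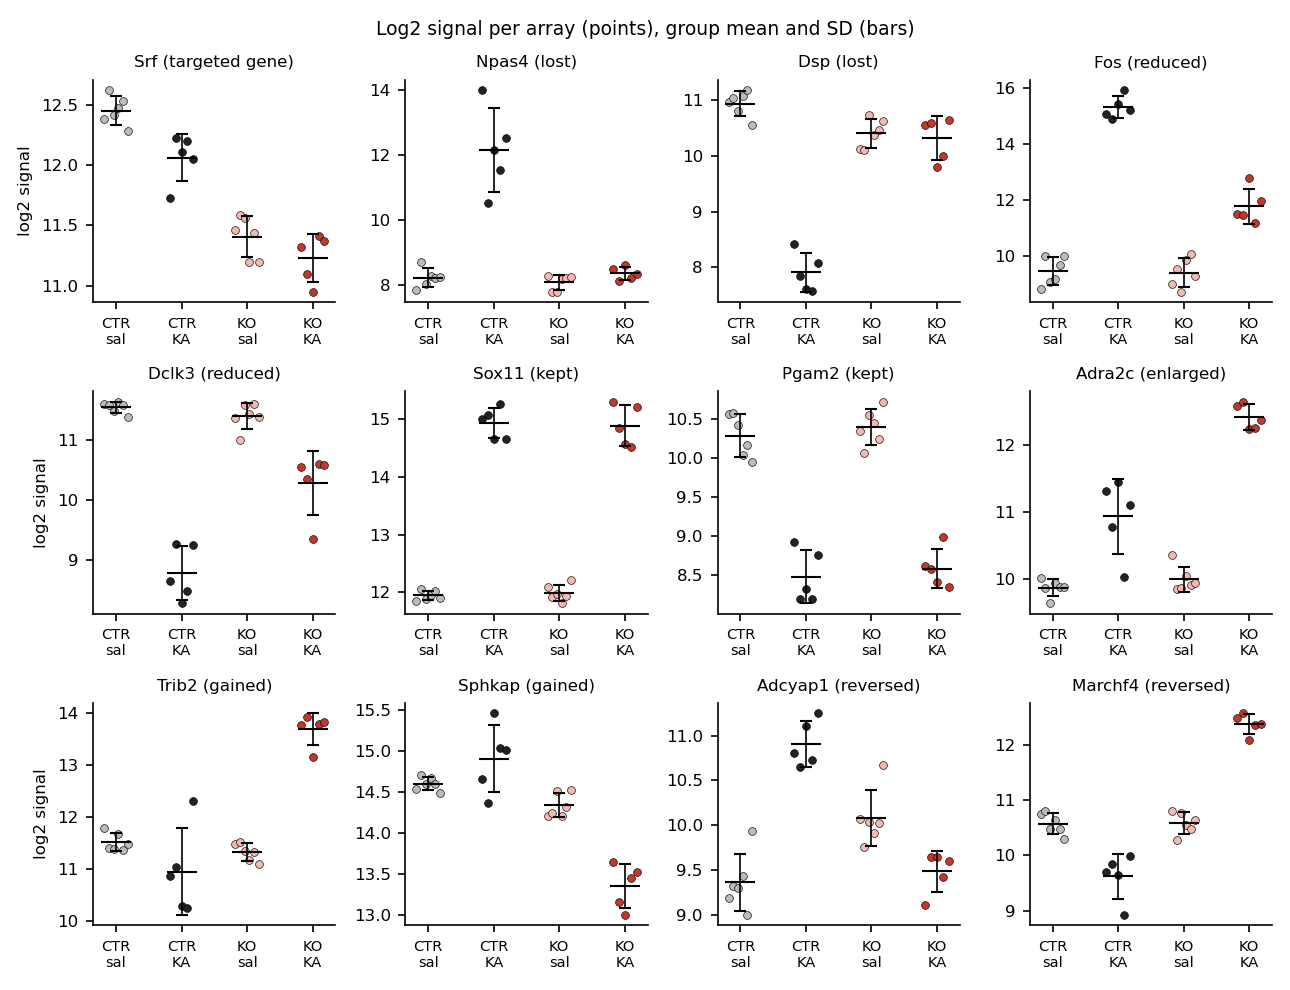
Log2 signal of 12 genes in each of the 22 arrays (points), with the group mean and SD as bars, for CTR saline (n = 6), CTR KA (n = 5), KO saline (n = 6) and KO KA (n = 5); the vertical axes do not start at 0 and differ between panels. Npas4 stays at 8.13 to 8.61 in the KO KA arrays against 10.52 to 13.99 in the CTR KA arrays, and Marchf4 moves down in CTR and up in KO mice.

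CArG boxes were searched for in RefSeq promoters (build GRCm38.p6), from 250 bases before to 50 bases after each annotated gene start, on both strands, since the box reads as a box on either. Of 15468 array genes with a promoter, 255 (1.65%) held at least 1 box, and of those that rose in CTR mice 31 of 1435 (2.16%) did. Boxes stood in 4 of 80 reduced rises (5%), 1 of 176 lost rises (0.568%) and 1 of 105 kept rises (0.952%). They stood in 1 of 115 lost falls (0.87%), 0 of 19 reduced falls and 3 of 209 kept falls (1.44%). The full cAMP response element TGACGTCA, which cannot overlap a CArG box, stood in 2.72% of all promoters and 5.51% of those of genes that rose in CTR mice. It stood in 7.5% of the reduced, 2.84% of the lost and 5.71% of the kept rises, and in 10.5% of the reduced falls (2 of 19), 3.48% of the lost and 2.87% of the kept falls. No box or element was found among the 2 enlarged, 32 gained and 9 reversed genes with a promoter. A match is a description of the sequence, not of SRF binding, and these small counts were not tested. The window is also short. The study reported SRF binding at Fos, Npas4, Gadd45g and Zfp36. Full predicted boxes of Fos, Npas4 and Gadd45g lie upstream of the window. A further predicted Gadd45g site, short of the full box, lies inside it. The predicted Zfp36 site of the study lies downstream and is not the Zfp36 box shown here. A gene without a box here can still hold one further away, so the shares do not rank the classes by SRF sites. The boxes of all classed genes are shown, the kept ones included, with up to 10 bases on either side and the box in capitals, so that sequence and interaction can be set side by side. Each is written in the direction of its gene, and the 2 lines of Egr2 belong to 2 annotated starts. Zfp36, Top1, Ppm1b, Lurap1l, Cldn12, Ptprr and Rap1gap2 were chosen for their box after the values were known.
Egr2, reduced, chr10:67537787-67537816: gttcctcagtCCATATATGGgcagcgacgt
Egr2, reduced, chr10:67537484-67537513: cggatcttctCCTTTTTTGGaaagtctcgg
Rnd3, reduced, chr2:51149192-51149221: ctcccaggctCCATAAAAGGggaggaggcg
Zfp36, reduced, chr7:28379267-28379296: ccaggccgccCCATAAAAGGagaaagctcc
Top1, reduced, chr2:160645667-160645696: cccgccgcggCCTTTAAAGGcctaccacgt
Ppm1b, lost, chr17:84957751-84957777: gaccttgCCAATTAAGGtgggcactga
Acta1, lost fall, chr8:123894829-123894858: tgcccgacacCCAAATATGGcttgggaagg
Lurap1l, kept, chr4:80910498-80910527: aacttagtaaCCTAATATGGgtatgctcag
Cldn12, kept fall, chr5:5515015-5515044: taaacctatcCCTAATAAGGtgcaagagga
Ptprr, kept fall, chr10:116177177-116177206: aaaggaagttCCATTTAAGGagggaaatga
Rap1gap2, kept fall, chr11:74559179-74559208: ctgtgtggtgCCTTTTTTGGctttagcaag
Rnd3 and Zfp36, an mRNA decay protein, held the same box, as did Rap1gap2 and one start of Egr2. Rnd3, Zfp36, Acta1, Cldn12 and Rap1gap2 lie on the minus strand and the others on the plus strand. Egr2, a zinc finger factor, rose by 3.17 in CTR and by 1.05 in KO mice (interaction −2.12), and Zfp36 by 3.02 and 0.99 (−2.03). Top1, a topoisomerase, rose by 1.78 and 0.92 (−0.86). Ppm1b, a phosphatase, had responses of 1.04 and 0.16 (−0.88), whereas Lurap1l, with a box too, rose by 0.86 in both genotypes. Among kept falls, Cldn12, a claudin, had an interaction of −0.11, Ptprr, a tyrosine phosphatase, of −0.08, and Rap1gap2, which inactivates Rap1, of −0.17.

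Kept responses were led by Sox11 (ILMN_1235647), a transcription factor of immature neurons, which was 15.00, 15.07, 14.66, 15.26 and 14.66 in the CTR KA arrays and 15.30, 14.85, 14.57, 14.51 and 15.20 in the KO KA arrays, over saline medians of 11.93 and 11.96. It rose 7.90-fold in CTR and 7.45-fold in KO mice, and the interaction was −0.085 (95% confidence interval −0.46 to 0.29). Zfp703, a zinc finger corepressor, rose 5.13-fold and 4.93-fold, and Dclk1, a microtubule-binding kinase of the doublecortin family, 3.44-fold and 3.29-fold. For Baalc the interval of the interaction reached −0.57, close to the margin of the class, and the gene left the class in 18 of 34 other fits. Pgam2, a phosphoglycerate mutase of muscle type, was 8.92, 8.19, 8.32, 8.19 and 8.76 in the CTR KA arrays and 8.61, 8.57, 8.41, 8.98 and 8.34 in the KO KA arrays, over saline medians of 10.29 and 10.39. The Pgam2 interaction was −0.0043 (95% confidence interval −0.46 to 0.45). Crocc, the rootletin of cilia, Acot5, an acyl-CoA thioesterase, and Lin7b, a scaffold of synapses, fell by 1.76, 1.76 and 1.66 in CTR mice and fell by 1.72, 1.61 and 1.67 in KO mice. In all 8 kept genes the KA arrays of the genotypes overlapped, which the rule of the class favours.

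Few responses were larger in KO mice. The enlarged responses were 7 probes, or 4 without CTR saline array 3, and 4 genes on their brightest probe, all rises. Adra2c (ILMN_3152476), the alpha-2C adrenergic receptor, was 11.31, 10.77, 11.45, 10.03 and 11.10 in the CTR KA arrays and 12.59, 12.65, 12.24, 12.25 and 12.38 in the KO KA arrays, over saline medians of 9.87 and 9.92. All KO KA arrays were above all CTR KA arrays, and CTR KA array 4 lay near its saline group. Adra2c rose 2.10-fold in CTR mice against 5.40-fold in KO mice, an interaction of 1.36 (standard error 0.24, adjusted p = 0.0012) and 1.24 on a second, similarly bright probe. Acvr1c (ILMN_2614086), the activin receptor ALK7, was 11.17, 10.96, 11.21, 12.64 and 11.09 in the CTR KA arrays and 13.16, 12.87, 12.86, 12.48 and 12.64 in the KO KA arrays. CTR KA array 4 alone reached the KO level. Its interaction was 1.49 (adjusted p = 0.0035). Cd1d1, a lipid-presenting molecule, rose 1.5-fold and 3.35-fold (interaction 1.15, adjusted p = 9.4e-04), its CTR rise lying just past the fold threshold, so that it was enlarged in 22 of 34 other fits. Ccn4, a matricellular protein, rose 1.86-fold and 4.81-fold (interaction 1.37, adjusted p = 0.0051). The call of Ccn4 was lost without any 1 of 9 arrays (CTR saline 3 or 4, CTR KA 3, KO saline 4 or 5, KO KA 1, 2, 4 or 5), where the adjusted p was at most 0.013 and the interaction at least 1.23.

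Gained responses, called in KO mice and not in CTR mice, were mostly rises (55 of 62 probes). Trib2 (ILMN_2432550), a pseudokinase, ran from 11.37 to 11.79 (median 11.45) in the CTR saline arrays and was 10.87, 11.04, 10.30, 10.26 and 12.31 in the CTR KA arrays. In KO mice it ran from 11.10 to 11.53 (median 11.34) after saline and was 13.77, 13.91, 13.16, 13.79 and 13.83 after KA. The CTR KA arrays lay on both sides of their saline group, while every KO KA array lay above every other array. Trib2 rose 5.14-fold in KO mice, and the interaction was 2.93 (standard error 0.34, adjusted p = 1.5e-05), against 0.26 (not called) on a probe with a mean signal of 7.47. St8sia2 (ILMN_2705294), a polysialyltransferase of developing neurons, was 7.54, 8.06, 7.23, 7.62 and 7.92 in the CTR KA arrays and 9.96, 10.31, 9.23, 9.74 and 10.60 in the KO KA arrays, over saline medians of 7.63 and 7.91. It rose 4.31-fold in KO mice from near the low end of the signal range (interaction 2.15, adjusted p = 2.7e-05).

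Fam210b, a mitochondrial membrane protein, rose 4.85-fold in KO mice (interaction 1.78, adjusted p = 2.5e-05). Neurod2, a basic helix-loop-helix factor of excitatory neurons, rose 2.29-fold (interaction 1.74, adjusted p = 0.0034). Its CTR KA arrays were spread from 12.15 to 14.08, against 14.32 to 14.98 in KO mice. The gained falls were 7 probes. Sphkap (ILMN_2841307), an anchoring protein of protein kinase A, was 14.66, 14.37, 15.46, 15.03 and 15.01 in the CTR KA arrays and 13.65, 13.16, 13, 13.45 and 13.52 in the KO KA arrays, over saline medians of 14.59 and 14.28. It fell 1.97-fold in KO mice, with an interaction of −1.29 (adjusted p = 3.2e-04). Rph3a, rabphilin of synaptic vesicles, fell by 0.72, Foxo1, a forkhead factor, fell by 1.13 and Mc4r, the melanocortin 4 receptor, fell by 0.66 in KO mice, with interactions of −1.21, −0.86 and −0.82. A dimmer Foxo1 probe, with a mean signal of 8.15, had responses of −0.44 and −0.65 and an interaction of −0.21 (adjusted p = 0.63), and the Foxo1 call was lost under the unmoderated factorial test of the study's methods and without the 6 arrays that deviated together.

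Reversed responses, called in both genotypes in opposite directions, were seen in 13 probes and 11 genes. In 12 of the 13 probes KA lowered the signal in CTR mice and raised it in KO mice. Marchf4 (ILMN_1227882), a membrane-bound ubiquitin ligase, was 9.69, 9.84, 9.65, 8.92 and 9.98 in the CTR KA arrays and 12.49, 12.57, 12.09, 12.35 and 12.37 in the KO KA arrays, over saline medians of 10.55 and 10.60. Neither KA group overlapped its saline group, and the interaction of 2.74 (standard error 0.21, adjusted p = 4.4e-08) had an interval of 2.32 to 3.17. The other Marchf4 probe gave 1.85. Slc27a3, a fatty acid transport protein, was 8.88, 8.99, 8.88, 8.39 and 9.40 in the CTR KA arrays and 10.35, 11.10, 10.12, 10.96 and 10.46 in the KO KA arrays, but its saline arrays ran as widely as 9.41 to 10.71 and 9.24 to 10.40. Its interaction was 1.99 (adjusted p = 4.4e-04).

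Gse1 had responses of −1.16 and 0.75, Slc7a4, a transporter-like membrane protein, of −1.02 and 0.72, and Bcar1, the adhesion scaffold p130Cas, of −0.97 and 0.71. Rimbp2, a scaffold of presynaptic active zones, had responses of −0.69 and 0.96, and Trpc4, a cation channel, of −1 and 0.65. Their interactions were between 1.65 and 1.91. The other 3 Gse1 probes, with mean signals of 7.52 to 7.75, gave 0.084 to 0.58 and were not called. Adcyap1 (ILMN_1227605), the gene of the neuropeptide PACAP, went the other way. It was 10.80, 10.65, 11.11, 10.73 and 11.25 in the CTR KA arrays and 9.11, 9.65, 9.65, 9.42 and 9.60 in the KO KA arrays. Its saline medians were 9.31 in CTR mice and 10.04 in KO mice. The KO minus CTR difference after saline was 0.71 and was not called (adjusted p = 0.65). The interaction was −2.14 (adjusted p = 5.9e-06). KO saline array 6 stood apart from its group at 10.67. Adcyap1 and Trpc4 were each classed as reversed in 26 of 34 other fits. In all 8 of these genes the KA arrays of the genotypes did not overlap. The genes were chosen for large called interactions, which favours such a separation. With a threshold of 2-fold in place of 1.5-fold, no response was classed as reversed.

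**Figure D3:**
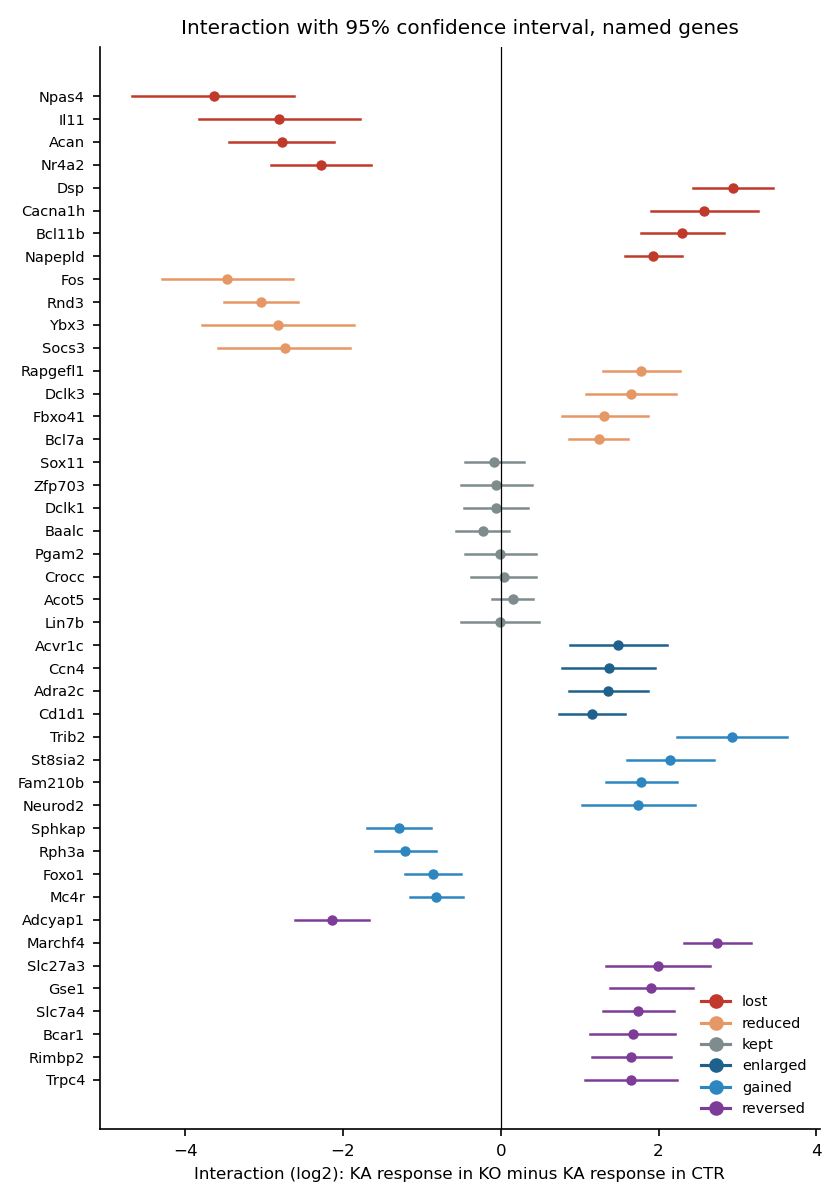
Interaction (log2, KA response in KO minus KA response in CTR) of the 44 genes that the class rules name, with its 95% confidence interval as a line, coloured by class. The 8 kept genes lie between −0.23 and 0.15 with intervals inside 0.585 on either side of 0, and the gained and reversed genes lie between −2.14 and 2.93.

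The single KO animals differed in how far they answered. Set against the mean CTR response, the lost probes moved by 14.5%, 9.08%, 28.5%, 11.3% and 19.2% in KO KA arrays 1 to 5, and the reduced probes by 47.8%, 42.9%, 60.6%, 36.2% and 51.5%. Array 3 was the highest in both classes, array 2 the lowest for lost and array 4 for reduced probes. The CTR KA arrays lay between 91.5% and 109% for the lost and between 95.4% and 106% for the reduced probes, so no KO array came near them. For the kept probes the KO arrays ran from 71.3% (array 4) to 107% (array 3) and the CTR arrays from 78.6% to 108%. These percentages describe probes that the same arrays classed.

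Genes were also read by function, on the brightest probe of each gene, beside a background of 1.71% of 21945 genes with a called negative interaction and 1.22% with a called positive one. The median interaction over all genes was −0.0025. The lists were chosen with earlier results of these data known, and some hold genes that the study picked on these arrays. Their shares are therefore descriptive. Of 35 measured immediate-early transcription factors, 18 had a called negative interaction and none a positive one, and the median interaction was −1.07. Of these responses 8 were lost and 10 reduced, and none was kept. Among them Junb was left with 20.6% of its response, Egr4 with 19.2%, Egr2 with 33.3% and Egr1 with 39.1%, all at an adjusted p of 2.1e-06. Egr3 rose by 1.57 and 1.28 (interaction −0.29, adjusted p = 0.67), and Cebpb, a leucine zipper factor, by 0.69 and 0.76 (interaction 0.074, adjusted p = 0.95). Btg2, Ier2, Nr4a1 and Klf10 had CTR responses between −0.069 and 0.078 at this time. The list's mean rose over saline by 1.69 to 2.04 in the CTR KA arrays and 0.54 to 0.88 in the KO KA arrays, without overlap.

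Of 39 late-response and secreted plasticity genes, 10 had a called negative interaction and none a positive one (median −0.77). Syt4, a synaptotagmin of secretory vesicles, was left with 15.5% of its response and Ntrk2, the BDNF receptor, with 25.2%. Gdnf, a neurotrophic factor, had responses of 2.97 and 0.82 (interaction −2.15, adjusted p = 0.0016), and Lcn2, an iron-binding lipocalin, of 4.70 and 2.05 (−2.66, adjusted p = 0.0012). Vgf, Scg2, Ptgs2 and Arc were reduced as well. Other members differed from these. Nptx1 rose by 1.24 in both genotypes and was kept, as was Nrn1, while the neuropeptide genes Npy and Gal had interactions of 0.85 (adjusted p = 0.016) and 1.11 (adjusted p = 0.16), which did not pass. Sorcs3 (−0.31) and Nptx2 (−0.53) were undecided.

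Of 19 feedback phosphatases and inhibitors of MAP kinase signalling, 6 had a called negative interaction (median −0.58), namely Errfi1, Dusp1, Socs3, Dusp6, Dusp16 and Dusp4. Errfi1, which restrains the EGF receptor, and Dusp1, a nuclear phosphatase of MAP kinases, were left with 33.7% and 31.7% of their responses. Of 41 genes of cytokines, chemokines and their signalling, 8 had a called negative interaction (median −0.38) and none a positive one. These were Cd14, Ccl3, Cxcl1, Ccl4, Il11, Tlr2, Ccl2 and Ccl7, with interactions from −2.81 for Il11 to −0.81 for Ccl2. Tnfrsf12a, the TWEAK receptor, rose by 2.54 and 2.25 (interaction −0.29, adjusted p = 0.65). Of 22 growth arrest and DNA damage genes, 4 had a called negative interaction (median −0.42), among them Gadd45g (−1.92, adjusted p = 4.2e-06) and the cell cycle inhibitor Cdkn1a (−2.04, adjusted p = 5.0e-04).

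Sterol genes included some of the lost rises. Of 20 genes of sterol synthesis and uptake, 10 rose in CTR mice (8.88% of all genes) and 1 in KO mice (4.2%), while 1 fell in CTR mice (8.48%) and none in KO mice (4.24%). A called negative interaction was found for 4 genes, all classed as lost, and the median interaction was −0.24. Sqle, squalene epoxidase, had responses of 1.57 and 0.071 (interaction −1.50, standard error 0.13, adjusted p = 3.1e-07). Srebf2, the master regulator of these genes, had 1.56 and 0.40 (−1.16, adjusted p = 5.4e-05), and −0.57 (adjusted p = 0.16) on a second probe. Cyp51 and Hsd17b7, enzymes further down the pathway, had interactions of −0.98 (adjusted p = 0.0030) and −0.87 (adjusted p = 0.0020). The Hsd17b7 call was lost without the 6 arrays that deviated together, and the Cyp51 call under the factorial test. Ebp, another enzyme of the pathway, rose by 0.87 and 1.15 (interaction 0.29, adjusted p = 0.56), and Insig1 had −0.011 and 0.015.

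Actin and matrix genes gave fewer calls. Of 29 cytoskeletal genes listed as targets of SRF, 3 showed a called negative interaction (Tpm4, Zyx and Tpm3) and 1 a positive one (Acta1), with a median of −0.40. The tropomyosin gene Tpm4 had responses of 1.65 in CTR and 0.32 in KO mice (−1.33, adjusted p = 0.0035), and Zyx, zyxin of focal adhesions, of 0.68 and −0.45 (−1.13, adjusted p = 0.0042). The calls of Tpm4, Zyx and Tpm3 were all lost under the study's factorial test. That of Tpm4 was also lost without the 6 arrays that deviated together (adjusted p up to 0.035). Without KO KA array 1 the Zyx interaction had an adjusted p of 0.011, and Tpm3 lost its call without any 1 of 12 arrays. Vcl and Actb had interactions of −0.78 (adjusted p = 0.19) and −0.27 (adjusted p = 0.38). The list's mean overlapped between the genotypes after KA (−0.0082 to 0.67 in CTR and −0.16 to 0.28 in KO arrays). Of 23 matrix genes, Ccn1 (−2.02, adjusted p = 3.8e-05) and Adamts4, an aggrecan-cleaving protease (−1.24, adjusted p = 0.0042), had a negative and Ccn4 a positive call, of which Adamts4 and Ccn4 lost theirs under the factorial test and without those 6 arrays. Ccn2 had a large but scattered interaction of −1.73 (adjusted p = 0.31). None of 10 genes of SRF, its cofactors and the Mef2 factors had a called interaction (median −0.015).

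Stress genes were divided. Of 22 cytosolic chaperone genes, Dnajb1 (−1.59, adjusted p = 8.1e-05) was lost and the cochaperone Bag3 (−1.44, adjusted p = 0.0024) reduced, the latter not called under the factorial test or without the 6 arrays, and the list's median was −0.24. Hspa1a, inducible Hsp70, had −2.72 with a standard error of 0.62 (adjusted p = 0.011), which passed without CTR KA array 1 or 5 or KO KA array 3, and a dimmer probe of it was called (−1.92, adjusted p = 0.0014). Hspa1a and Hspa1b are near-identical copies, and their probes may not tell them apart. Of 27 genes of endoplasmic reticulum and amino acid stress, Sdf2l1 alone was called (−1.94, adjusted p = 6.8e-05), and the list's mean ran from 0.31 to 1.41 in the CTR KA arrays against 0.34 to 0.39 in the KO KA arrays. Of 17 clock and PAR bZIP genes none was called on its brightest probe, the smallest adjusted p being 0.011 for Per2 (−0.75), although other probes of Per2 (−0.93) and Ciart (−1.25) were. Arntl, Clock and Per3 were kept. The mean of the clock list did not overlap between the genotypes after KA (−0.092 to 0.23 in CTR and −0.36 to −0.15 in KO arrays).

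Calls among channel and receptor genes were few in number, and the medians of these lists lay between −0.27 and 0.14. Beside 2.93% of all genes called in either direction, a small number in a short list is not a low share. Of 46 potassium channel genes, Kcnip3 and Kcns2 had a called positive interaction (1.14 and 1.22), and of 21 glutamate receptor genes Grm2 and Grik4 did (1.10 and 1.16). Grm2, a presynaptic metabotropic receptor, had responses of −0.32 in CTR mice and 0.78 in KO mice (adjusted p = 2.0e-05). Of 29 sodium, calcium and HCN channel genes, Cacna1h had a positive call, and Cacng3, an AMPA receptor auxiliary subunit (−1.61, adjusted p = 0.0014), and Cacnb4 a negative one. The calls of Kcnip3, Kcns2, Grik4 and Cacnb4 were each lost without any 1 of 13 to 19 arrays. All of them were also lost without the 6 arrays that deviated together, and those of Kcnip3, Kcns2 and Grik4 under the factorial test. None of 10 GABA receptor genes was called. The list means of the glutamate receptors (−0.39 to −0.18 in CTR and −0.14 to 0.04 in KO arrays) and of the neuropeptide receptors (−0.028 to 0.086 and −0.23 to −0.13) did not overlap after KA. Of 22 neuropeptide receptor genes Cckbr was called (−1.47, adjusted p = 0.0022), together with its ligand gene Cck (−0.94, adjusted p = 0.0026) in the interneuron list. Of 19 immature neuron and polysialic acid genes, St8sia2 and Neurod2 had a positive and Sox4 a negative call (−1.04, adjusted p = 2.2e-04), whereas Sox11 and St8sia4, another polysialyltransferase, were kept.

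**Figure D4:**
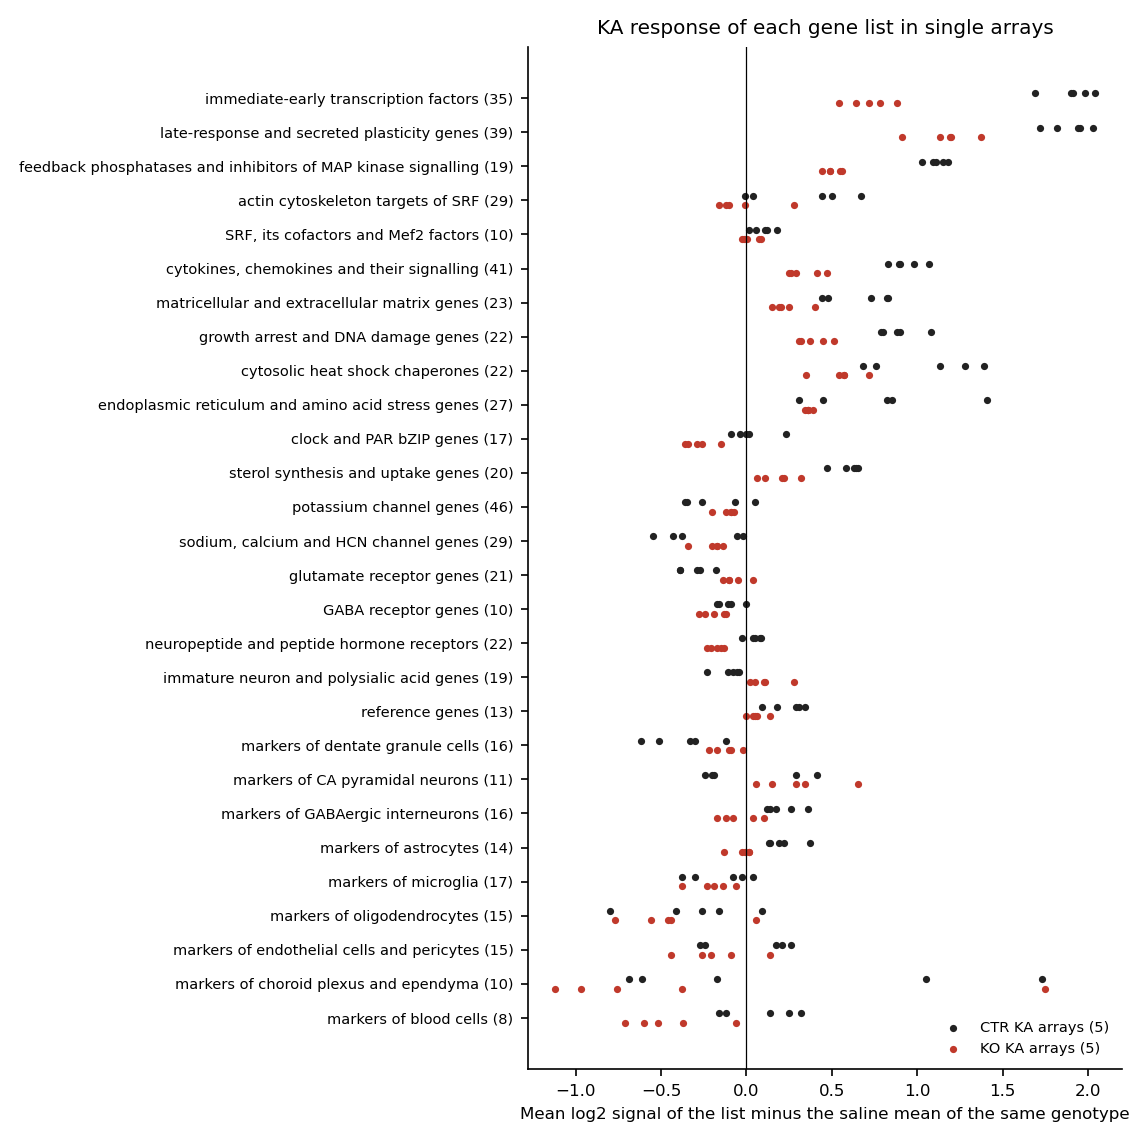
Mean log2 signal of each of the 28 gene lists minus the saline mean of the same genotype, in the 5 CTR KA arrays (black) and the 5 KO KA arrays (red); the number of measured genes stands in brackets. The immediate-early list runs from 1.69 to 2.04 in CTR and from 0.54 to 0.88 in KO arrays, whereas the choroid plexus list is spread from −1.12 to 1.75 without regard to genotype.

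Among cell type markers, called interactions were most frequent in the granule cell list, beside 1.71% of all genes with a negative and 1.22% with a positive one. Of 16 granule cell markers, Dsp, Rasl10a and C1ql2 had a positive call and Tdo2 a negative one (−1.43, adjusted p = 0.0025), with a median interaction of 0.085. The calls of Rasl10a (1.61) and C1ql2 (1.19) were lost without any 1 of 6 and 18 arrays. Over these markers the mean fell below saline by 0.12 to 0.62 in the CTR KA arrays and by 0.019 to 0.22 in the KO KA arrays. Markers of interneurons (1 of 16 called, Cck), astrocytes (0 of 14) and microglia (1 of 17, Cd68) had medians of −0.18, −0.23 and −0.026. The Cd68 call (−0.81, adjusted p = 0.0050) was lost without any 1 of 5 arrays. The calls of Rasl10a, C1ql2, Cd68 and Tdo2 were lost under the study's factorial test and without the 6 arrays that deviated together. The astrocyte mean lay 0.13 to 0.37 above saline in the CTR KA arrays and −0.13 to 0.014 in the KO KA arrays, and the interneuron mean 0.12 to 0.36 and −0.17 to 0.10, without overlap. Their part in the other results was not tested. None of 15 oligodendrocyte, 15 endothelial and pericyte, 10 choroid plexus and 8 blood markers was called. The median interactions of these lists were −0.14, −0.20, −0.68 and −0.45, in that order. None of 13 reference genes was called either, but 12 of their interactions were below 0, with a median of −0.13. The reference mean lay 0.09 to 0.34 above saline in the CTR KA arrays and −0.0015 to 0.14 in the KO KA arrays, with overlap. CA pyramidal markers gave 1 call of 11, Grik4.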

How the data were processed

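MouseWG-6 v2.0 BeadChips measured dentate gyrus RNA, 1 array for each of 22 male mice. The deposited log2 signals were made by the authors with the BeadArray package (background subtraction, quantile normalization, log2; its version is not given in the sources used here), and they were used without further scaling. The deposited linear intensity table, called non-normalized but with columns of nearly equal distribution, was read only to compare its headings. No detection p was used and no probe was left out. The lowest signal was 6.69 and the median 7.88, so changes of dim probes may be understated, which was not tested. Array number limits the precision.

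The 4 group means were fitted with limma 3.58.1 in R 4.3.3 (18 residual degrees of freedom). Each contrast was tested by empirical Bayes, and p-values were adjusted by Benjamini-Hochberg over 46237 probes. The study's factorial ANOVA, an unmoderated test, is an alternative. Of the probes, 35784 carried 1 gene symbol after 931 were updated through RefSeq (21945 genes). A gene is given on its probe with the highest mean signal. Samples were grouped by their GEO labels.

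In each class the 8 genes with the largest interaction (kept: largest CTR response) were named, 4 from each direction where possible, skipping clone names, with Srf, and up to 4 genes of each list with the smallest interaction p. Further list members are named as examples, chosen with values known. Classes, members and the 28 lists (586 of 635 genes on the array) were chosen with earlier results of these data known, and some lists hold genes that the study picked on these arrays. The fits were tested on simulated data. The alternatives were the ANOVA, array weights, a filter on dim probes, centring, an intensity trend, blocks, other thresholds and leaving out arrays.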

Additional observations from a re-analysis of the deposited data

Results flagged for a closer look

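Among the 45 genes named by class or as Srf, 10 of 180 groups had an array far from the rest of its group by Dixon's criterion. This share is close to the 5% that chance gives. KO KA array 3 was the one set apart in 5 of them. It lay on the side of the CTR KA arrays for Il11 (10.06 against 8.05 to 8.30 in the other arrays of the group), Socs3 (11.92 against 9.94 to 10.32), Dclk3 (9.35 against 10.35 to 10.59), Trib2 (13.16 against 13.77 to 13.91) and Acot5 (7.49 against 7.79 to 7.88). Its dose, seizure course and slide are not in the labels, so their part was not tested. The others were Napepld in KO KA array 5 (12.12 against 11.40 to 11.57), Trpc4 in KO KA array 2 (11.87 against 11.27 to 11.44), Acvr1c in CTR KA array 4 (12.64 against 10.96 to 11.21) and, in KO saline array 6, Acot5 (9.76 against 9.22 to 9.34) and Adcyap1 (10.67 against 9.76 to 10.07).

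Of the 11 genes with responses called in opposite directions in the genotypes, the 8 named ones, with their called interactions, were Marchf4 (2.74), Slc27a3 (1.99), Gse1 (1.91), Slc7a4 (1.74), Bcar1 (1.67), Rimbp2 (1.65), Trpc4 (1.65) and Adcyap1 (−2.14).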

How the results depend on the processing

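Of 966 called interactions, the factorial ANOVA of the study's methods gave 613 (376 negative, 237 positive), with 375 lost, 131 reduced and 4 enlarged responses. Array weights gave 1576 (974 and 602), with 993 lost and 318 reduced. At an adjusted p under 0.05 the interaction was called for 2058 probes (1256 and 802), with 1197 lost, 357 reduced, 13 enlarged and 97 gained. A 2-fold threshold for the KA response left 77 reduced, 94 kept, 4 enlarged, 31 gained and 0 reversed, and a 2-fold margin gave 1579 kept. Without the 6 arrays that deviated together, chosen after seeing the data, 39 responses were gained, and all other counts of that fit were within 1.5 times. The cause of these differences was not tested, beyond the thresholds themselves. The filter on dim probes, both centrings, the intensity trend and the 6 arrays as a block moved no count by over 1.5 times. Leaving out 1 array at a time gave 674 to 1227 interactions, 420 to 706 negative and 254 to 541 positive (541 without CTR KA array 5), 407 to 762 lost, 157 to 283 reduced, 526 to 775 kept, 4 to 10 enlarged (4 without CTR saline array 3), 43 to 69 gained and 10 to 19 reversed. The labels give replicate numbers no meaning, and they were not taken as pairs. Deviations of same-numbered arrays correlated at −0.272 to 0.367 (median 0.112, 18 of 31 over 0.1), and those of other pairs of arrays had a median of −0.0063 (49 of 150 over 0.1). With the replicate number as a block, 1119 interactions were called, 697 negative and 422 positive, with 691 lost, 228 reduced, 702 kept, 8 enlarged, 58 gained and 15 reversed responses. Of all 79 named genes with a called interaction, 58 kept the call in all 31 alternatives. Of the 36 among them named by class, 31 did, and Fbxo41, Acvr1c, Ccn4, Neurod2 and Foxo1 did not. No called interaction of a named gene changed sign, but the alternatives reuse the arrays that made the calls.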
